A study of Mus musculus with 12 samples.

Results

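Mitochondrial ribosomal protein genes were described across differentiating mouse erythroid cells given a metal chelator, siRNA against the zinc importer ZIP10, or both. Members were taken by symbol: every listed gene named Mrpl or Mrps followed by a number, with an optional letter, without names ending in -ps (6 such names, of pseudogenes). This gave 78 of 55487 listed genes, 49 named Mrpl and 29 named Mrps, on 17 chromosomes. Of these, 77 averaged 1 TPM or more and were tested (TPM is a length-corrected share of transcripts, scaled so that a library sums to 1e+06). The remaining gene, Mrpl53, was listed at a mean of 0.0156 TPM.

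The mitochondrial ribosome is a separate machine from the ribosome of the cytosol. It translates the few membrane proteins of the respiratory chain and ATP synthase that mitochondrial DNA encodes, on 2 ribosomal RNAs that are also encoded there. All of its proteins are made from nuclear genes and imported. Those of the large subunit come mostly from genes named Mrpl, and those of the small subunit mostly from genes named Mrps. Some of these proteins descend from bacterial ribosomal proteins and others were added in the mitochondrial lineage. Erythroid cells need active mitochondria for heme synthesis and lose them as they mature.

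RNA came from G1E-ER4 cells, an established line of mouse erythroid progenitors without GATA1 of their own, in which estradiol switches on a GATA1 fusion protein. All cultures received siRNA by nucleofection 2 times, 24 h apart, and 100 nM β-estradiol with the second delivery. The siControl group received a control siRNA alone, and siControl plus DTPA also received 25 µM DTPA, a metal chelator that stays outside cells, when differentiation began. The siZIP10 group received siRNA against ZIP10, which Slc39a10 encodes, and siZIP10 plus DTPA received both. Cells were harvested at 24 h, and poly(A) libraries were made from 3 biological replicates a group. The values given for siControl plus DTPA replicate 3 repeated those of siZIP10 replicate 1 and were left out, so that group had n = 2 and the others n = 3. Low zinc below means siControl plus DTPA against siControl, low ZIP10 means siZIP10 against siControl, and the double treatment means siZIP10 plus DTPA against siControl. Zinc and ZIP10 protein are not among the measurements, and DTPA binds other metals too.

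The targeted transcript, Slc39a10, averaged 2.62 TPM in siControl, 21.1 TPM with DTPA, 0.627 TPM with the siRNA and 5.10 TPM with both. The siRNA therefore lowered it in each setting, while with both treatments it stood above control. Mt1, a zinc-induced metallothionein gene, averaged 1707 TPM in siControl, 173 TPM with DTPA, 1997 TPM with the siRNA and 269 TPM with both. With the siRNA alone it was thus above control (117%). Recovered depth was 19.6 to 24.7 M reads a library (1 M is 1e+06), and members had between 39 reads (Mrps6) and 3781 reads (Mrpl24) in a library. All 10 erythroid markers were above 1 TPM on average, with summed levels of 38448 to 55723 TPM. In the double-treated libraries some markers of other blood lineages were higher. The summed level of 5 megakaryocyte markers was 16.2 to 17.5 TPM in siControl and 57.3 to 58.5 TPM with both, and that of 5 mast cell and basophil markers was 14.7 to 16.4 and 77.1 to 80.5 TPM. Nearly all of the latter was Kit, which erythroid progenitors also express (13.8 to 15.2 and 55.6 to 59.8 TPM), and Hdc (0.832 to 1.26 and 20.7 to 22.5 TPM). Mcpt8 and Fcer1a were at 0 throughout, and Cpa3 reached at most 0.0951 TPM. Among the megakaryocyte markers, most of the sum with both was Gp1ba (7.19 to 8.6 TPM in siControl and 26.7 to 27.7 TPM with both) and Itgb3. These 2 genes, Pf4 and Itga2b lay above control without overlap. Gp9 did not rise (1.04 to 2.77 TPM in siControl and 1.23 to 1.84 TPM with both). For 5 myeloid markers the sums were 2.33 to 3.32 and 5.86 to 6.80 TPM, with Mpo, Elane and Itgam at 0, and for 4 lymphoid markers 0.564 to 1.33 and 3.36 to 4.07 TPM. Their part in the results on the double treatment was not tested.

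Summed over the 78 genes, the level was below control in each treated group and lowest with both treatments. The summed level was 4695, 4665 and 4751 TPM in the siControl libraries. It was 4261 and 4203 TPM with DTPA, and 4251, 4326 and 4245 TPM with the siRNA. With both treatments it was 3475, 3418 and 3573 TPM. The single treatments overlapped each other and lay below all controls, and the double-treated libraries lay below all others. As a share of the control mean of 4703 ± 43.6 TPM (SD, n = 3), the group means were 89.97%, 90.9% and 74.2%. Less RNA per cell and fewer cells expressing the genes cannot be told apart in bulk RNA. TPM is a share of all transcripts, and in the same libraries the 80 cytosolic ribosomal protein genes summed to 115%, 99.0% and 133% of their control mean.

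**Figure D1:**
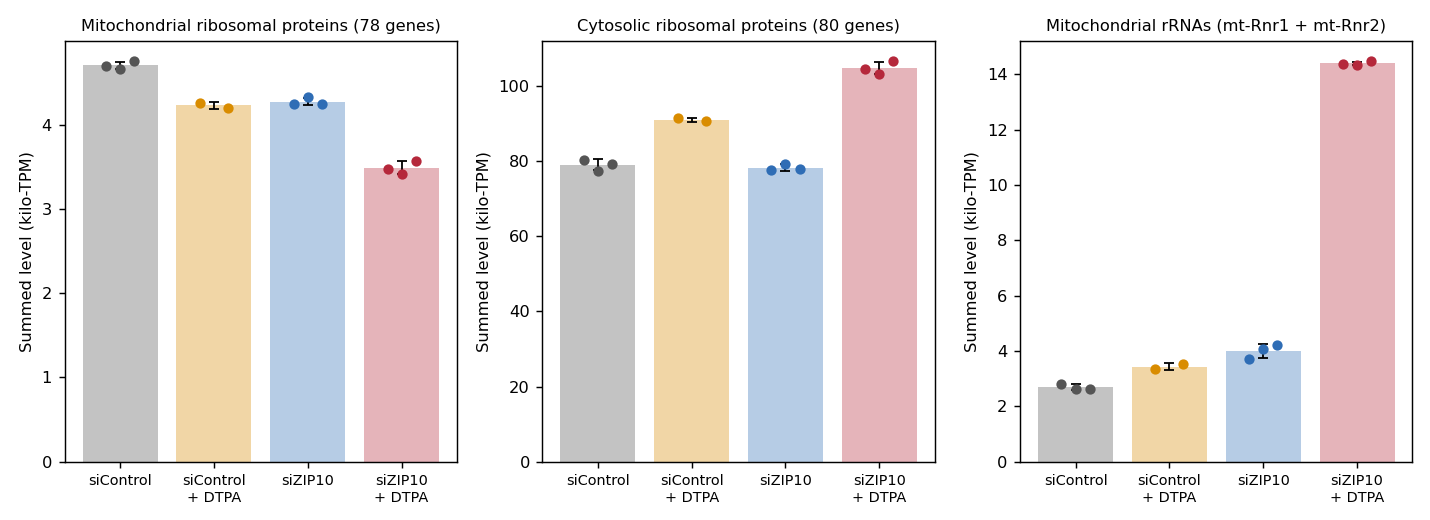
Summed level in TPM (y axis in kilo-TPM, from 0) of the 78 mitochondrial ribosomal protein genes, 80 cytosolic ribosomal protein genes and the 2 mitochondrial rRNAs in each group. Bars are means, points are libraries and error bars are SD; the mitochondrial ribosomal protein sum is lowest with both treatments (74.2% of control), while the other sums are highest there.

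With both treatments 62 of the 77 tested members were called lower and 1 higher, at a Benjamini-Hochberg adjusted p under 0.05 in limma's moderated test. Of all 11379 tested genes, 39.9% were called lower and 26.7% higher. The median change of the members was −0.40 on the log2(TPM + 1) scale, against −0.08 over all tested genes. In 63 members every double-treated library lay under every control library, where 41.8% of all tested genes did. Called lower were 37 of 48 tested Mrpl genes and 25 of 29 Mrps genes. The fall was shared by both sets of names, with a median of −0.40 in each. It was also shared by the 47 members with a bacterial counterpart, of which 39 were called lower, and the 30 other members, of which 23 were. When libraries were rescaled by median-of-ratios, 56 members were called lower and 4 higher, and the median change was −0.32. The voom method on reads recovered from the TPM values gave 58 lower and 4 higher. The balance over all genes moved as well. Of their calls 40.1% were higher in the main fit, 49.2% with median-of-ratios and 47.1% with voom.

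**Figure D2:**
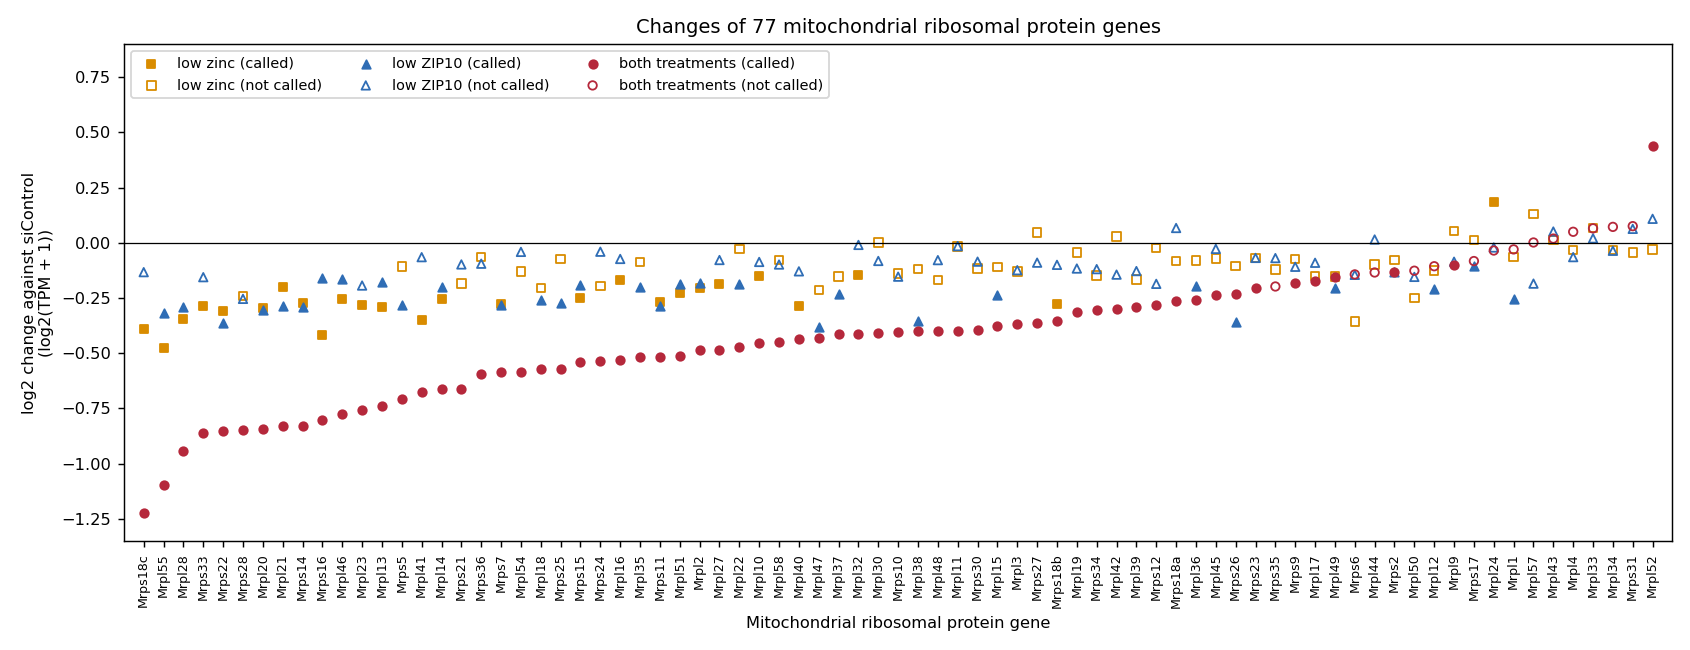
Change of each of the 77 tested members on the log2(TPM + 1) scale (y axis) with low zinc, low ZIP10 and both treatments against siControl, with members sorted along the x axis by their change with both. Filled points passed the limma test and open points did not; the double treatment reaches −1.22 and lies under the single treatments for most members.

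The Mrps18c gene, one of 3 mitochondrial relatives of bacterial S18, had the largest fall of all members. Mrps18c lies at chr5:100798627-100804471 on the plus strand (mm10). Its level was 65.7, 69.1 and 71.2 TPM in siControl, 53.5 and 50.7 TPM with DTPA, 57.4, 66.5 and 64.0 TPM with the siRNA, and 30.004, 30.8 and 25.9 TPM with both. The double-treated libraries stood well below every other library, and the siZIP10 libraries overlapped the controls. The change was −1.22 ± 0.07 (SE) with both treatments (adjusted p = 6.4e-08) and −0.39 ± 0.08 with low zinc (adjusted p = 0.0038). With low ZIP10 it was −0.13 (adjusted p = 0.188). Another gene, Gm43511, covers 23.2% of its exons on the same strand at 1.89 TPM in control, so some reads may belong to it.

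Mrpl55, a large-subunit protein without a bacterial counterpart, and Mrpl28, counterpart of bacterial L28, followed. Mrpl55 (chr11:59202486-59206134, plus strand) stood at 135, 137 and 126 TPM in siControl, 100 and 90.1 TPM with DTPA, 101, 110 and 107 TPM with the siRNA, and 62.3, 64.6 and 57.7 TPM with both. All 3 treated groups lay below control without overlap, with changes of −0.48 (low zinc, adjusted p = 0.000264), −0.32 (low ZIP10, adjusted p = 0.00161) and −1.10 (both, adjusted p = 2.22e-08). Mrpl28 (chr17:26123500-26126613, plus strand) was the second most abundant member. Its level was 229, 243 and 234 TPM in siControl, 189 and 181 TPM with DTPA, 198, 192 and 186 TPM with the siRNA, and 120, 121 and 124 TPM with both. All treated libraries lay below all controls, and the double-treated mean was 51.8% of control (−0.94 ± 0.03 SE, adjusted p = 1e-09). Mrps18c and Mrpl55 were the 2 called members whose mean with both treatments was under 50% of control, at 42.1% and 46.4%.

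The stretches upstream of the 3 members with the largest falls and of Mrpl52, the member that rose, are shown to set their letters side by side. They are from RefSeq (GRCm38.p6), 5′ to 3′ along the gene's strand, and only the stretch free of annotated exons is printed. Capitals mark CCGGAAG or its reverse complement CTTCCGG, the core bound by ETS factors, or AGATAA, a form of the GATA motif.
Mrps18c (chr5:100798599-100798626, plus strand): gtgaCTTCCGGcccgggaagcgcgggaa
Mrpl55 (chr11:59202386-59202485, plus strand): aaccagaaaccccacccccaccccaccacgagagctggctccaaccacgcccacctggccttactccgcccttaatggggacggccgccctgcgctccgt
Mrpl28 (chr17:26123255-26123499, plus strand): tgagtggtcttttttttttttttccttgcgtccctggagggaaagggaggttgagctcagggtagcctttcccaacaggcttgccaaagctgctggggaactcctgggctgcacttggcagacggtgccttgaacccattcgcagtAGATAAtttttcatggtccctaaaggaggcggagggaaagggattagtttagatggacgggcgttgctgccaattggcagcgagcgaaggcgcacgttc
Mrpl52 (chr14:54426659-54426908, plus strand): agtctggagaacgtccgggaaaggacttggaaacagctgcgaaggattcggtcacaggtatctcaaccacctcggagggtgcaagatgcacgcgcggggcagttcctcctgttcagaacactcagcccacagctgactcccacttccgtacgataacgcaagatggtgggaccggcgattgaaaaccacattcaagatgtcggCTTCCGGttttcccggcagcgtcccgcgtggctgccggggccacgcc
Mrps18c and Mrpl52, with the largest fall and a rise, both held the ETS core, and Mrpl28 held AGATAA. Of the 78 members, 69 matched RefSeq, with 75 windows running from 250 bases before to 50 after the start. CCGGAAG on either strand was in 26 windows (34.7%), against 8.86% of all 32851 windows and 21.2% of the 9754 windows of tested genes. AGATAA on either strand was in 14.7%, 11.2% and 6.32% of these. GCATGCG, the nuclear respiratory factor 1 core, was in 10.7%, 3.58% and 7.24%, and ATGGCGG, the YY1 core, in 17.3%, 4.06% and 9.52%. CACGTG, the E-box, was in 9.33%, 7.15% and 10.8%, and TATAAA in 6.67%, 13.6% and 6.46%. None of these motifs contains another, and a match is a run of letters and not a bound site. Members with CCGGAAG (26 genes) had a median change of −0.37 with both treatments and those without it −0.41. With and without AGATAA (11 genes) the medians were −0.53 and −0.41, and they were the same for TATAAA (5 genes). For CACGTG (5 genes) they were −0.49 and −0.40, and for GCATGCG (8 genes) −0.32 and −0.42. For ATGGCGG (13 genes) both were −0.41. These differences were not tested.

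Among small-subunit genes, Mrps33, Mrps22, Mrps28, Mrps14 and Mrps16 came next. Mrps22, a protein of mitochondrial ribosomes only, was at 15.3, 15.6 and 15.0 TPM in siControl, 12.6 and 11.7 TPM with DTPA, 11.6, 12.1 and 11.4 TPM with the siRNA, and 8.06, 7.95 and 8.10 TPM with both. Each treated group lay under control, and the double-treated group lay lowest (−0.85 ± 0.05 SE, adjusted p = 5.27e-08). Mrps16, counterpart of bacterial S16, was at 27.2, 27.5 and 27.3 TPM in siControl, 19.9 and 20.498 TPM with DTPA, 23.8, 24.2 and 25.2 TPM with the siRNA, and 14.7, 15.8 and 15.4 TPM with both. Here the DTPA libraries also lay below the siRNA libraries, with changes of −0.42 (adjusted p = 6.97e-05) and −0.16 (adjusted p = 0.012) against −0.80 with both (adjusted p = 1.83e-08). Mrps33 went from 38.4, 38.4 and 38.0 TPM to 21.7, 20.3 and 19.991 TPM with both (−0.86, adjusted p = 6.18e-07). The bacterial-type proteins Mrps14 (−0.83, adjusted p = 1.06e-07) and Mrps28 (−0.85, adjusted p = 2.58e-05) fell to 55.3% and 54.5% of control. Mrps5, counterpart of bacterial S5, changed by −0.71 and Mrps12, a protein of the decoding region, by −0.28 (adjusted p = 0.00439). Mrps10 was at −0.40, Mrps27, a pentatricopeptide repeat protein, at −0.37, and Mrps18b at −0.35, all called.

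Among large-subunit genes, Mrpl20 (−0.84, adjusted p = 1.07e-07) and Mrpl21 (−0.83, adjusted p = 4.55e-08) fell to 55.4% and 55.5% of control. Mrpl46 was at 89.6, 87.2 and 92.7 TPM in siControl, 71.3 and 79.3 TPM with DTPA, 77.1, 80.3 and 82.6 TPM with the siRNA, and 51.8, 52.003 and 52.5 TPM with both. The double-treated values lay close together and below all others (−0.77, adjusted p = 4.26e-08). Mrpl41, a protein without a bacterial counterpart, was at 217, 211 and 211 TPM in siControl, 173 and 161 TPM with DTPA, 202, 215 and 194 TPM with the siRNA, and 130, 132 and 137 TPM with both. The siRNA alone left it overlapping control (−0.07, adjusted p = 0.27), whereas DTPA alone (−0.35, adjusted p = 0.000277) and both treatments (−0.68, adjusted p = 9.56e-08) did not. The stalk protein gene Mrpl10 changed by −0.45 (adjusted p = 1.53e-06), while Mrpl12, which binds beside it on the stalk, did not pass the test (−0.11, adjusted p = 0.119). Mrpl45, which anchors the exit tunnel to the inner membrane, changed by −0.24, Mrpl39, related to threonyl-tRNA synthetase, by −0.29 and Mrpl37 by −0.41. Mrpl58, a peptidyl-tRNA hydrolase built into the large subunit, changed by −0.45. Mrps30 (−0.40) and Mrps18a (−0.26) sit in the large subunit despite their names and were called as well.

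**Figure D3:**
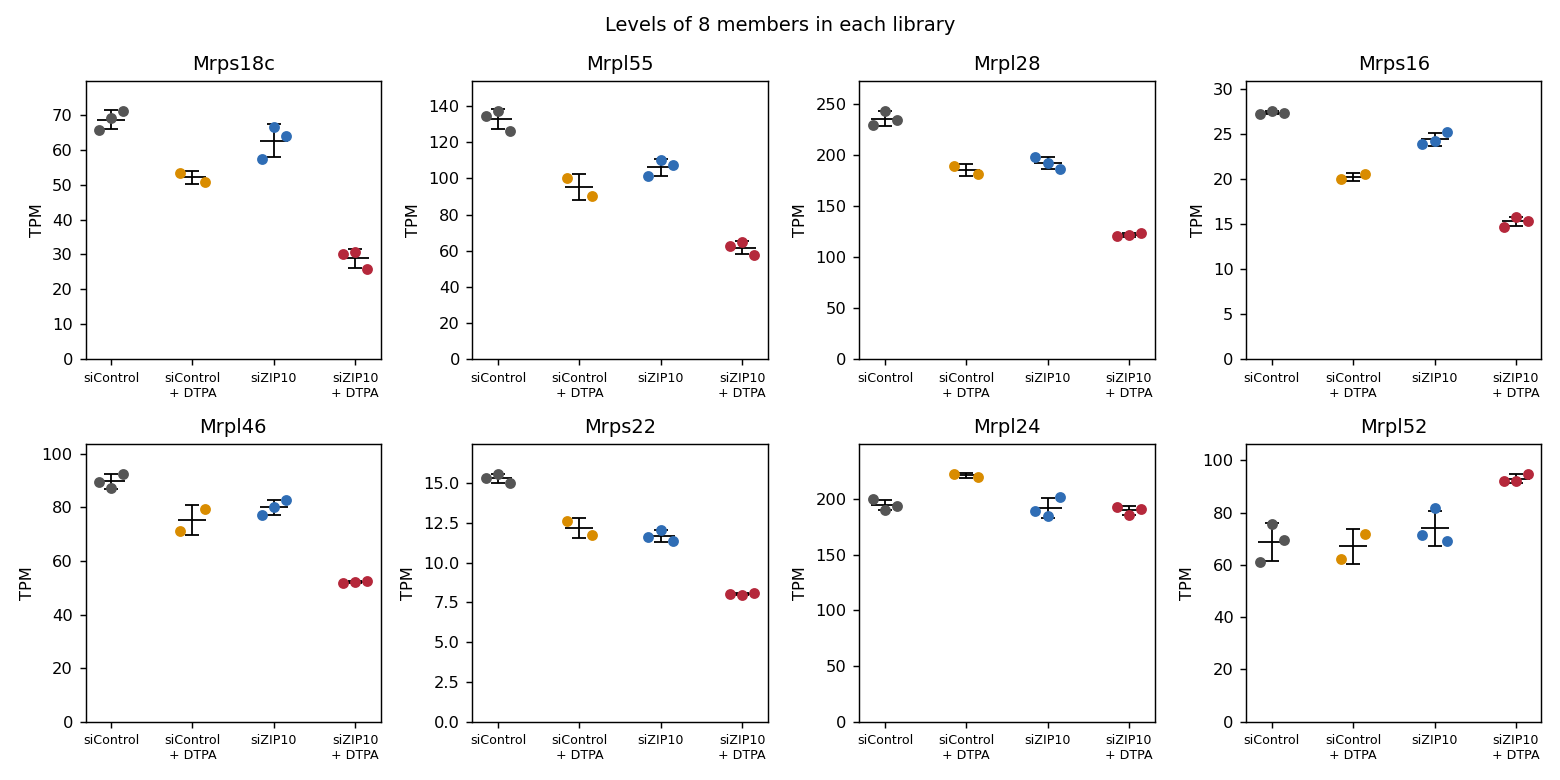
Level in TPM (y axis, linear, separate scale for each panel) of 8 members in the 11 libraries by group, with points for libraries and bars for mean ± SD. Mrps18c, Mrpl55, Mrpl28, Mrps16, Mrpl46 and Mrps22 are lowest with both treatments, Mrpl24 is highest with DTPA alone, and Mrpl52 is highest with both.

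Mrpl52, a large-subunit protein specific to mitochondria, was the member called higher with both treatments. It was at 61.0, 75.6 and 69.4 TPM in siControl, 62.4 and 71.8 TPM with DTPA, 71.3, 81.6 and 69.1 TPM with the siRNA, and 92.0, 92.0 and 95.0 TPM with both. The double-treated libraries lay above all others, and the other 3 groups overlapped (0.44 ± 0.08 SE, adjusted p = 0.000787, 135% of control). Leaving out siControl replicate 2 brought the count of members called higher to 2, and under median-of-ratios scaling and with voom Mrpl4, Mrpl33 and Mrps31 were called higher too. The 14 members not called either way were Mrpl1, Mrpl4, Mrpl12, Mrpl24, Mrpl33, Mrpl34, Mrpl43, Mrpl44, Mrpl50, Mrpl57, Mrps6, Mrps17, Mrps31 and Mrps35. Mrpl43 was at 101% of control, with a neighbour (Twnk, the mitochondrial helicase gene) covering 33.4% of its exons on the other strand. Mrpl44, an RNase III-like protein, was at −0.13. Mrps35 and Mrps6 had the lowest levels of the tested members, and the change of Mrps6 was −0.14 ± 0.16 (SE).

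With both treatments the sum over Mrpl genes stood nearer to control than that over Mrps genes. By name, Mrpl genes summed to 75.4% and Mrps genes to 71.0% of control. The ratio of the sums was between 2.60 and 2.65 in all libraries of the other 3 groups and was 2.76, 2.80 and 2.78 in the double-treated libraries. No test of this ratio was made. Names do not match subunits fully: the Mrps set holds Mrps30 and Mrps18a of the large subunit and leaves out Dap3 of the small subunit. It also holds Mrps36, which is not of the ribosome. Abundant genes weigh most in a sum, and Mrpl24, the most abundant, was not called with both treatments. The median change was −0.40 in each set.

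With low zinc alone 25 members were called lower and 1 higher, against 18.8% and 9.98% of all tested genes. The median was −0.14, against −0.04 over all genes. Mrpl55 (−0.48), Mrps16 (−0.42), Mrps18c (−0.39), Mrpl41 (−0.35), Mrpl28 (−0.34) and Mrps22 (−0.31) had the largest called falls. In 50 members both DTPA libraries lay below all controls, as did 34.4% of all tested genes. Mrpl24, counterpart of bacterial L24 and the most abundant member, went the other way. It was at 200, 190 and 194 TPM in siControl, 223 and 220 TPM with DTPA, 189, 184 and 202 TPM with the siRNA, and 193, 186 and 191 TPM with both. The DTPA libraries alone stood above the rest (0.19 ± 0.04 SE, adjusted p = 0.00444), and with both treatments its libraries overlapped the controls (−0.04, adjusted p = 0.392). Rrnad1 covers 26.3% of the exons of Mrpl24 on the opposite strand. The low zinc group rests on 2 libraries, and without siControl plus DTPA replicate 2 the members called lower were 14.

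With low ZIP10 alone 30 members were called lower, against 17.5% of all tested genes, and the median was −0.13 against −0.01. None was called higher by limma (13.1% of all genes were), none at an unadjusted p under 0.05, and none by voom. In 46 members all siZIP10 libraries lay below all controls, as did 24.6% of all tested genes. The largest falls were in Mrpl47, the counterpart of bacterial L29, Mrps26, Mrps22 and Mrpl38, a protein specific to mitochondria. Mrpl38 was at 33.6, 33.030 and 33.4 TPM in siControl, 30.2 and 31.0 TPM with DTPA, 27.5, 24.2 and 26.002 TPM with the siRNA, and 23.8, 26.7 and 24.6 TPM with both. The siRNA libraries and the double-treated libraries overlapped, both below the rest (−0.35, adjusted p = 0.000613, and −0.40, adjusted p = 5.22e-05). Mrpl47 had the same order, with 10.5, 10.2 and 11.1 TPM in siControl, 8.63 and 9.36 TPM with DTPA, 7.68, 8.09 and 7.95 TPM with the siRNA, and 8.53, 7.24 and 7.12 TPM with both. Its changes were −0.38 with the siRNA (adjusted p = 0.0028) and −0.43 with both (adjusted p = 0.000326). Mrps26 was at 16.8, 17.2 and 17.5 TPM in siControl, 16.7 and 15.1 TPM with DTPA, 13.6, 14.010 and 11.9 TPM with the siRNA and 14.6, 14.2 and 14.7 TPM with both. Its siRNA libraries lay lowest (−0.36, adjusted p = 0.00159), with the double-treated ones between them and control.

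The comparisons against siControl share those libraries, and their calls are therefore given side by side. The 15 members called lower in all of them were Mrpl2, Mrpl13, Mrpl14, Mrpl20, Mrpl21, Mrpl28, Mrpl46, Mrpl51, Mrpl55, Mrps7, Mrps11, Mrps14, Mrps15, Mrps16 and Mrps22. For 9 of them every call held with each library left out in turn. The exceptions, with 1 or both single-treatment calls lost, were Mrpl2, Mrpl13, Mrpl21, Mrpl46, Mrps11 and Mrps15. Of all tested genes 10.2% were lower in all 3. Another 25 were called lower with both treatments and with neither alone (17.4% of all tested genes). All 25 lower with low zinc were lower with both, and of the 30 lower with low ZIP10 all but Mrpl1, Mrpl12 and Mrps17 were. Each of these 3 lost its low ZIP10 call with any of at least 4 libraries left out. Most genes behaved likewise: of the 2136 tested genes lower with low zinc, 1989 were lower with both. Of the 1987 lower with low ZIP10, 1739 were. For 62 tested members the lowest of the 4 group means was that of the double treatment, as it was for 46% of all tested genes.

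The effect of DTPA was also measured in cells that had received the siRNA against ZIP10. There 49 were called lower and 3 higher (37.3% and 23.1% of all tested genes), with a median of −0.28 against −0.06. Median-of-ratios scaling gave 44 lower and 10 higher, and voom 44 and 7. Of the calls over all genes 38.2% were higher in the main fit, 48.7% with median-of-ratios and 47.1% with voom. The 3 higher were Mrpl52 (0.33, adjusted p = 0.00573), Mrpl1 (0.23, adjusted p = 0.0191) and Mrpl4 (0.11, adjusted p = 0.0176); without siZIP10 replicate 2 neither Mrpl1 nor Mrpl4 passed, nor did Mrpl1 without siZIP10 plus DTPA replicate 3 or Mrpl4 without replicate 1 of that group. Without siZIP10 replicate 1 the members called higher were 5. Conversely, the siRNA in DTPA-treated cells left 52 members lower and 1, Mrpl52, higher (31.7% and 21.3% of all tested genes), with a median of −0.27 against −0.04. Median-of-ratios scaling and voom each called 3 higher, and leaving out siControl replicate 1 gave 2. Of the calls over all genes 40.2% were higher in the main fit, and 49.0%, 48.7% and 40.3% in these settings. The largest changes there were in Mrps18c (−0.83), Mrpl21 (−0.63), Mrpl55 (−0.62), Mrpl28 (−0.60), Mrps28 (−0.60) and Mrps5 (−0.60).

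The test of the difference itself, the DTPA change with the siRNA minus that without it, called 25 members below 0, against 20.4% of all tested genes. None was called above 0 by limma (12.0% of all genes were), although 6 were at an unadjusted p under 0.05. With median-of-ratios scaling 23 were called below and 4 above, and with voom 22 and 7. Of the calls over all genes 37.1% were above 0 in the main fit, 46.0% with median-of-ratios and 47.4% with voom. Without siControl plus DTPA replicate 1 the members called below 0 were 15, and without siControl replicate 1 those called above 0 were 3. Mrps18c had the largest difference (−0.70 ± 0.11 SE, adjusted p = 0.000547), followed by Mrps36, Mrps33, Mrpl54 and Mrps21, whose call was lost without siControl plus DTPA replicate 2. Mrps36, which is now known as a subunit of the 2-oxoglutarate dehydrogenase complex and not of the ribosome, was at 123, 118 and 112 TPM in siControl, 112 and 113 TPM with DTPA, 107, 109 and 116 TPM with the siRNA, and 77.6, 78.1 and 77.6 TPM with both. Its 8 libraries without the double treatment lay between 107 and 123 TPM, and the 3 with it lay under them all (difference −0.43, adjusted p = 0.000232). Mrpl11, counterpart of bacterial L11, had the same pattern. It was at 44.7, 41.1 and 42.9 TPM in siControl, 43.3 and 41.5 TPM with DTPA, 40.2, 44.6 and 42.6 TPM with the siRNA, and 31.9, 31.8 and 33.2 TPM with both. Both single changes were −0.02, and the double change was −0.40 (difference −0.37, adjusted p = 0.00212). In all, 8 of the 25 were called lower with neither single treatment, among them Mrpl24, which was called higher with low zinc. The matching share over all tested genes is not given.

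**Figure D4:**
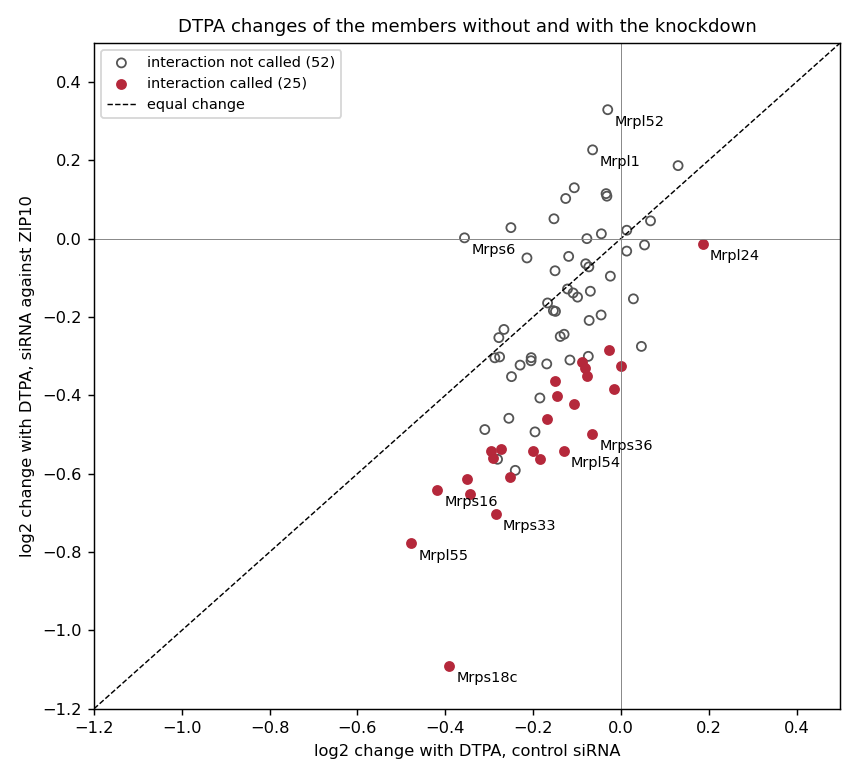
Change with DTPA on the log2(TPM + 1) scale without the siRNA against ZIP10 (x axis) and with it (y axis), 1 point for each of the 77 tested members; red marks the 25 whose difference was called, and the dashed line is an equal change. The red points lie under the line, with Mrps18c lowest at −1.09.

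Transcripts for other mitochondrial ribosome proteins, whose genes carry other names, moved the same way. Dap3, a GTP-binding protein of the small subunit, went from 38.0 ± 0.943 TPM (SD, n = 3) to 21.2 ± 0.601 TPM with both treatments (−0.81, adjusted p = 4.54e-09). Gadd45gip1 (−0.71), Chchd1 (−0.45), Aurkaip1 (−0.39) and Ptcd3 (−0.32) were also called, so that all 5 on the list fell, as all 5 did with low zinc and 4 with low ZIP10. The next lists lay closer to all tested genes, of which 39.9% were lower and 26.7% higher with both, at a median of −0.08. Of 26 tested assembly factors 11 fell (42.3%) and 4 rose (15.4%), at a median of −0.10. Tfb1m, a small-subunit rRNA dimethyltransferase, was at −0.70 and Mettl15, another methyltransferase, at −1.06. Rbfa, a small-subunit maturation factor, rose from 72.0 ± 1.81 TPM (SD, n = 3) to 132 ± 9.47 TPM (0.87, adjusted p = 8.03e-08). Nsun4 (0.60), Ngrn (0.40) and Mrm1 (0.18), which act on or with mitochondrial rRNA, rose as well. Of 14 translation factors 4 fell and 4 rose (28.6% each), at a median of 0.0068. Tufm, the elongation factor, fell from 94.6 to 59.5 TPM (−0.66), and Oxa1l, the inner-membrane insertase for newly made chains, rose from 39.7 to 53.9 TPM (0.43). In mitochondrial transcription and RNA handling 8 of 14 fell (57.1%) and 4 rose (28.6%), at a median of −0.22, with Slirp at −0.64 and its partner Lrpprc at −0.42.

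The rRNAs of the mitochondrial ribosome and the transcripts for its proteins did not move together with both treatments. The mitochondrial rRNAs mt-Rnr1 and mt-Rnr2 summed to 2693 ± 112 TPM (SD, n = 3) in control and 14393 ± 62.6 TPM with both, 535% of control. The changes were 2.28 for mt-Rnr1 (adjusted p = 1.7e-11) and 2.61 for mt-Rnr2 (adjusted p = 2.32e-11). These RNAs were captured by poly(A) selection, so the values follow the share that carries a tail as well as the amount. Of the 77 tested cytosolic ribosomal protein genes 68 (88.3%) were called higher with both treatments and 4 lower, at a median of 0.41. With low zinc 62 of them (80.5%) were called higher while 25 mitochondrial members were called lower. Of all tested genes 9.98% were higher and 18.8% lower there. With low ZIP10 7 of the cytosolic genes (9.09%) were called higher and 11 (14.3%) lower. These shares lay under those of all tested genes, 13.1% and 17.5%.

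Neighbours limit single members. Mrpl46 and Mrps11 start 42 bases apart on opposite strands of chromosome 7, and 12.2% of the exons of Mrpl46 overlap those of Mrps11. The stretch between their annotated exons, along the strand of Mrps11, is short.
Mrps11 (chr7:78783090-78783118, plus strand): ccatgaggcaacgcgggccggcgaggggc
Mrps11 was at 55.6, 52.6 and 57.6 TPM in siControl, 44.6 and 46.9 TPM with DTPA, 44.7, 45.2 and 45.5 TPM with the siRNA, and 39.1, 34.3 and 41.9 TPM with both. Each treated group lay under control (−0.27, −0.28 and −0.52), and all 3 changes were called. The DTPA change of Mrps11 with the siRNA minus that without it was 0.03 (adjusted p = 0.823), and that of Mrpl46 was −0.36 (adjusted p = 0.0016). The difference between these 2 genes was not tested. The low zinc call of Mrps11 was lost without siControl replicate 3, and without either siControl plus DTPA library. Likewise the low zinc call of Mrps33 was lost without siControl plus DTPA replicate 1, and the low ZIP10 call of Mrpl46 without siControl replicate 3 or siZIP10 replicate 1. In all, 9 members (Mrpl19, Mrpl24, Mrpl43, Mrpl53, Mrps18b, Mrps18c, Mrps25, Mrps27 and Mrps34) share over 20% of their exons with another gene, and how reads were assigned by strand is not given in the sources used here. For Mrpl53 that share is 88.0%, all of it with Gm42688 on the same strand, which averaged 3.57 TPM in control and 5.26 TPM with both.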

How the data were processed

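The members and gene lists were chosen with earlier results of these data known. The authors deposited TPM for 12 libraries, which sum to 1e+06 in each. The submitters' processing notes name HISAT2 2.1.0 and featureCounts, Trimmomatic 0.33, edgeR and FastQC, and the mm10 build. Which annotation, strand setting and order of steps were used is not given in the sources used here. The 55487 values of siControl plus DTPA replicate 3 equalled those of siZIP10 replicate 1, so 11 libraries were used.

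The scale was log2(TPM + 1), on which low genes change less than their TPM do. The 11379 genes averaging 1 TPM or more were fitted with limma 3.58.1 in R 4.3.3, as 4 group means with a trend on mean level (7 residual degrees of freedom), and two-sided p were adjusted by Benjamini-Hochberg over all genes in each of 6 comparisons, with a threshold of 0.05. The script was tested on simulated data. Multiplying TPM by GENCODE M21 exon length recovered reads, 98.9% to 99.2% of values up to 20 reads being whole within 0.1 read. They served as an alternative, in voom, beside other filters, pseudocounts and scalings, a replicate block, and each library left out in turn. Named members were, in each comparison, the up to 6 largest called rises and falls, the 4 highest and 4 lowest in level, and members of known role. Others, such as those listed by name in a count, Mrps11, Mrps33 and Mrpl11, were chosen after their values were seen. The value of 1 lymphoid marker is not reported here. Motifs were counted in RefSeq windows. Replicate numbers did not pair libraries.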

Additional observations from a re-analysis of the deposited data

Results flagged for a closer look

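In 25 members the change with DTPA differed between cells with and without the siRNA against ZIP10, by limma's interaction contrast at an adjusted p under 0.05. The values are the log2 change with the siRNA minus that without it, and all lay below 0. The 10 largest were Mrps18c (−0.70), Mrps36 (−0.43), Mrps33 (−0.42), Mrpl54 (−0.41), Mrps21 (−0.38), Mrpl11 (−0.37), Mrpl46 (−0.36), Mrpl21 (−0.34), Mrpl30 (−0.33) and Mrps5 (−0.31). The others were Mrpl28 (−0.31), Mrpl55 (−0.30), Mrpl16 (−0.29), Mrpl13 (−0.27), Mrpl58 (−0.27), Mrpl41 (−0.26), Mrpl22 (−0.26), Mrps14 (−0.26), Mrpl32 (−0.26), Mrps18a (−0.25), Mrpl20 (−0.25), Mrpl35 (−0.23), Mrps16 (−0.22), Mrpl10 (−0.22) and Mrpl24 (−0.20). The contrast that picked these 25 contains the DTPA change in siZIP10 cells, so a call of that change is not independent of it. In 24 of them that change was itself called lower, and the matching share over all tested genes is not given. Mrpl24 was the exception, with a change of 0.19 in siControl cells and −0.01 in siZIP10 cells. For 13 the call held in every alternative setting: Mrpl11, Mrpl16, Mrpl21, Mrpl28, Mrpl30, Mrpl32, Mrpl41, Mrpl46, Mrpl54, Mrpl58, Mrps18c, Mrps33 and Mrps36. Leaving out siControl plus DTPA replicate 1 ended the calls of Mrpl10, Mrpl24 and Mrpl55, and leaving out replicate 2 of that group those of Mrps16 and Mrps21. Those of Mrpl10 and Mrps16 were also lost with voom, and that of Mrpl24 with the duplicated library as labelled. The calls of Mrps14, Mrpl13, Mrpl20, Mrpl22, Mrpl35, Mrps5 and Mrps18a were each lost with more than 1 library left out in turn, and all of these but Mrps14 also with no filter and without the mt- genes. Groups of 3 or fewer libraries are too small for a test of single outlying libraries, and none was made.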

How the results depend on the processing

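The call with its direction, or the absence of a call, held for 8713 of 9151 recomputed values of single members. A change of sign in a value called in neither fit was not counted as a shift. Among the others 292 lost the call, 145 gained it and 1 reversed: Mrpl24, with DTPA in siZIP10 cells, was −0.01 and became 0.064 under median-of-ratios scaling (adjusted p = 0.0447). Median-of-ratios scaling gave medians of −0.10 (low zinc), −0.32 (both), −0.21 (DTPA in siZIP10 cells), −0.22 (siRNA in DTPA-treated cells) and −0.080 (interaction), and members called higher of 4 (both), 10, 3 and 4 in the last comparisons. Without the mt- genes the medians were −0.38, −0.24, −0.24 and −0.082 in the same order from both treatments on, with 6, 3 and 6 called higher in the last 3. Voom gave −0.36, −0.23, −0.24 and −0.087, with 4, 7, 3 and 7 higher. A pseudocount of 0.1 gave medians of −0.42 (both) and −0.29 (siRNA in DTPA-treated cells). A filter of 5 TPM gave −0.30 (DTPA in siZIP10 cells) and −0.14 (interaction, 2 called higher). With the duplicated library used as labelled, 0 members were called higher with low zinc and 3 in the interaction. Medians over all tested genes moved too. With both treatments they were −0.075 (main fit), 0.0078 (median-of-ratios), −0.045 (without the mt- genes) and −0.017 (voom). The members' median minus these was −0.328, −0.325, −0.332 and −0.338. In the interaction it was −0.091, −0.091, −0.092 and −0.10. Of calls over all genes in the last 3 comparisons, 38.2%, 40.2% and 37.1% were higher in the main fit. Without the mt- genes 43.4%, 44.6% and 44.7% were. The cause of these shifts was not tested.

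Leaving out each library in turn gave 14 to 27 members lower with low zinc and 15 to 26 in the interaction. Members called higher were 1 to 2 with both treatments, 2 to 5 with DTPA in siZIP10 cells, 1 to 2 with the siRNA in DTPA-treated cells and 0 to 3 in the interaction. Medians were −0.15 to −0.12 (low ZIP10), −0.30 to −0.25 (DTPA in siZIP10 cells) and −0.17 to −0.10 (interaction).

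In 15 pairs of libraries with the same replicate number, deviations from the group means correlated between −0.0602 and 0.0607, so the numbers were not taken as pairs. With a replicate block the interaction median was −0.13 with 2 members called higher, the siRNA in DTPA-treated cells gave 2 higher, and 61 members were called lower with both treatments. The fit of only the groups compared was not run for the interaction, which uses all 4. Depth limits the lowest members, of which Mrps6 had 39 reads in 1 library.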

Other observations

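Names ending in -ps, which were not counted as members, include 2 that carried more than traces of signal. Mrpl48-ps averaged 46.3 ± 3.47 TPM (SD, n = 3) in siControl and 33.6 ± 3.64 TPM with both treatments, above Mrpl48 itself, which was at 13.030, 12.8 and 12.030 TPM and then at 10.6, 8.69 and 8.81 TPM. Mrpl27-ps averaged 15.1 ± 1.63 TPM and 9.22 ± 1.08 TPM. The changes were −0.45 (adjusted p = 0.000373) and −0.65 (adjusted p = 0.000671) in limma, near those of Mrpl48 (−0.40) and Mrpl27 (−0.48), and reads of near-identical copies may have been divided between the names, so the values of both parents are uncertain.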
